A study of Rattus norvegicus with 10 samples.

Results

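Rarres2, Tmem212, Drc12 (older symbol Ccdc153) and Foxj1 are genes known from the ependyma, the ciliated cell layer that lines the brain ventricles. They were chosen by name, together with every probe set that the annotation of the Affymetrix rat genome array gives to one of them alone. This gave 5 probe sets for the 4 genes, among 20826 probe sets that name a single gene and 14217 genes in all. Tmem212 had 2 probe sets and the other genes had 1 each. Hypothalamic total RNA of 10 male Wistar rats was hybridized to 1 array per rat. All rats were 3 weeks old at the start and took powdered feed for 2 days, and then either solid chow (C group, Chow 1 to Chow 5) or powdered feed (P group, Powder 1 to Powder 5) for 8 days, until 4 weeks of age. The labels name no transgene and no other treatment. The comparison asks how the texture of the feed, and so chewing, goes with gene expression in the hypothalamus.

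Ependymal cells border the ventricle in the middle of the hypothalamus and move cerebrospinal fluid with bundles of motile cilia. A motile cilium is built on an axoneme of microtubules, on which dynein arms drive the beat and radial spokes and the nexin-dynein regulatory complex coordinate it. Foxj1 is the forkhead transcription factor that switches on the genes of motile cilia, and Rfx factors bind the X-box in many of the same genes. Drc12 is a coiled-coil protein of the nexin-dynein regulatory complex. Tmem212 is a membrane protein of multiciliated cells whose molecular role is little known. Rarres2 encodes chemerin, a secreted attractant of immune cells and a ligand of Cmklr1. It is made by ventricle-lining cells and also by cells of the meninges, the membranes around the brain.

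The promoters of the genes whose probe sets varied are shown first, because Drc12 and 1 of the 2 Tmem212 probe sets moved together over the rats and Rarres2 ran opposite to Tmem212. Each sequence is the stretch from 250 bases before to 50 bases after the transcript start in RefSeq's annotation of GRCr8, at chr2:112741819-112742118 (minus strand) for Tmem212, chr8:53474409-53474708 (plus strand) for Drc12 and chr4:78856359-78856658 (minus strand) for Rarres2. Capitals mark the forkhead core TGTTTA and the X-box core GTTGCC, searched on both strands. The table of promoters matched 3 of the 4 genes, and Foxj1 is named only.
Tmem212: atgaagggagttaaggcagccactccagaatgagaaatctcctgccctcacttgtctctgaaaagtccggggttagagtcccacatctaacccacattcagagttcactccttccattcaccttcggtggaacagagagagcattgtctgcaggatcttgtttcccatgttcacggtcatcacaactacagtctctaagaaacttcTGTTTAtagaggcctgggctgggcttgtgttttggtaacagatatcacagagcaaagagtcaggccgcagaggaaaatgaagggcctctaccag
Drc12: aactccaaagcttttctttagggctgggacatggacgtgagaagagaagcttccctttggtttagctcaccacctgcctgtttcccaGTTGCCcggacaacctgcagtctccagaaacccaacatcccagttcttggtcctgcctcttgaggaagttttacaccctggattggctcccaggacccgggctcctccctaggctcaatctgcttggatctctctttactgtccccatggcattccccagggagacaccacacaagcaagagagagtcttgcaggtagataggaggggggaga
Rarres2: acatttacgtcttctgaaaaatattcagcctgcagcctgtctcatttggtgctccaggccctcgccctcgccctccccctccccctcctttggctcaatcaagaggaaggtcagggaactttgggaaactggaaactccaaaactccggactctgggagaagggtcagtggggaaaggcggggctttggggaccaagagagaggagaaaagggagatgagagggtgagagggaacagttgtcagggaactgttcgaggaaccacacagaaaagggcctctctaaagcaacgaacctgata
The promoter of Tmem212 held the forkhead core starting at position -44 from the transcript start, and that of Drc12 held the X-box core starting at position -163. That of Rarres2 held neither of these letter strings, which says nothing about the factors themselves. The forkhead core was in 13.7% of the promoters of 27457 genes and the X-box core in 12.2%. Among the 43 other genes of motile cilia on the array with a promoter in the table, 5 (11.6%) held the forkhead core and 14 (32.6%) the X-box core. Among 12 leptomeningeal genes the numbers were 1 (8.33%) and 2 (16.7%). These motifs were chosen with the sequences in view, and a match is a description and not a binding site.

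All values are log2 signals, and differences are given as C minus P in log2 units, beside limma's standard error (SE). Signals of different probe sets cannot be set against each other. The summarization used for these arrays leaves most probe sets almost flat, and 1391 of 31042 (4.48%) had a standard deviation (SD) over the 10 rats above 0.1 while 28736 (92.6%) had one below 0.001. All array pairs correlated at 0.9970 to 0.9991. In bulk tissue, fewer cells of a type and less RNA per cell cannot be told apart. A probe set was called at a false discovery rate (FDR) below 0.05 by rank products, the test of the study. By that rule 534 probe sets (1.72%) were called in either direction, 286 (0.921%) higher and 250 (0.805%) lower in the C group. Limma called 0 probe sets at an adjusted p below 0.05, with 1100 (3.54%) below 0.05 before adjustment.

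Of the 5 probe sets, 4 varied over the rats and that of Foxj1 was flat. Both Tmem212 probe sets and Drc12 were called lower in the C group and Rarres2 was called higher, each by rank products alone, where 1.72% of all probe sets were called. For none of them did the 5 C rats separate from the 5 P rats. Of the 1391 probe sets with an SD above 0.1, 34.5% were called in either direction and 14.6% were called lower, so a call is common among probe sets that vary this much. With limma the adjusted p was 1 for all 5 probe sets. The exact permutation p adjusted over all probe sets was 0.999 for each, and 959 probe sets (3.09%) had an unadjusted exact p below 0.05, but none of these 5. The smallest exact p that 5 against 5 rats allow is 0.00794.

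**Figure D1:**
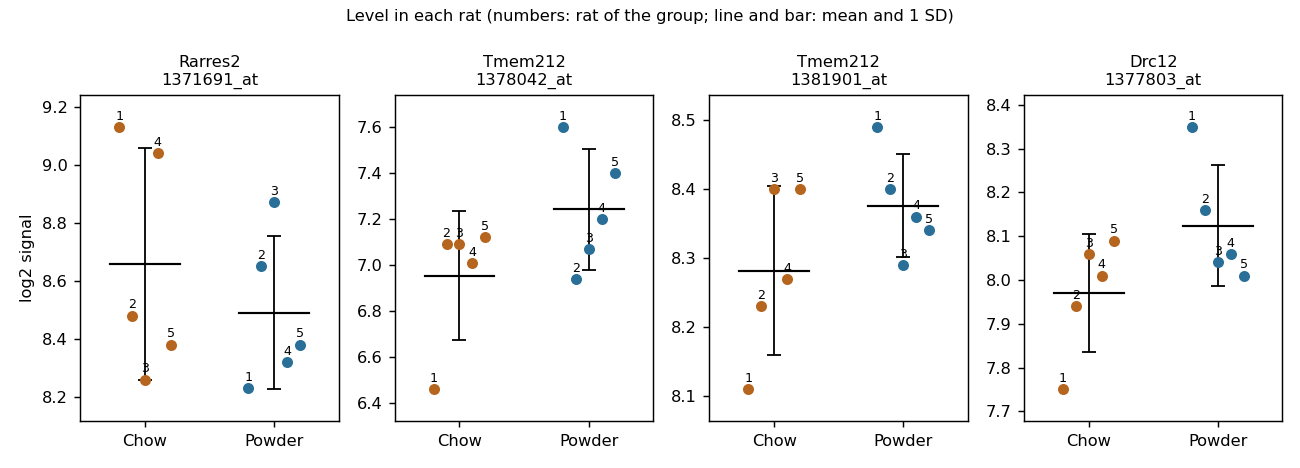
Log2 signal of the 4 varying probe sets of Rarres2, Tmem212 and Drc12 in each of the 10 rats, by diet, with numbers for the rat, lines at the group means and bars of 1 SD (n = 5 rats). Chow 1 holds the lowest value of both Tmem212 probe sets and of Drc12 and the highest of Rarres2, and the groups overlap in each panel.

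Drc12 (probe set 1377803_at) read 7.75 in Chow 1, 7.94 in Chow 2, 8.06 in Chow 3, 8.01 in Chow 4 and 8.09 in Chow 5. In the P group it read 8.35, 8.16, 8.04, 8.06 and 8.01 in Powder 1 to Powder 5. Chow 1 was the lowest rat and Powder 1 the highest, and the other rats lay close together between them. The mean was 7.97 ± 0.13 (SD, n = 5) in the C group and 8.13 ± 0.14 (SD, n = 5) in the P group, a difference of -0.16 (SE 0.08), or 0.898 of the P level. The FDR of a lower level was 0.0103, and the exact two-sided permutation p was 0.111. All 5 C rats lay below the mean of the P group, and 2 of them lay below every P rat. The call was lost without Chow 1 (FDR 0.0522), without Powder 1 (FDR 0.112) and without Powder 2 (FDR 0.0666).

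The first Tmem212 probe set (1378042_at) read 6.46, 7.09, 7.09, 7.01 and 7.12 in Chow 1 to Chow 5. It read 7.60, 6.94, 7.07, 7.20 and 7.40 in Powder 1 to Powder 5. Chow 1 stood far below the other 4 C rats, whose values fell within those of the P group. The group means were 6.95 ± 0.28 (SD, n = 5) for C and 7.24 ± 0.26 (SD, n = 5) for P, a difference of -0.29 (SE 0.17), or 0.818 of the P level. The FDR of a lower level was 0.001 and the exact two-sided permutation p was 0.151. This was the one probe set of the 5 that kept its call without each single rat, at a difference of -0.17 without Chow 1 and -0.20 without Powder 1. It was not called without both Chow 1 and Chow 4 (FDR 0.0654).

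The second Tmem212 probe set (1381901_at) varied less, with a range of 0.379 over the rats against 1.14 for the first. It read 8.11, 8.23, 8.40, 8.27 and 8.40 in Chow 1 to Chow 5 and 8.49, 8.40, 8.29, 8.36 and 8.34 in Powder 1 to Powder 5. Again Chow 1 was lowest and Powder 1 highest, and here Chow 3 and Chow 5 lay above 3 of the P rats. The difference was -0.10 (SE 0.06), with means of 8.28 ± 0.12 and 8.38 ± 0.07 (SD, n = 5 each), an FDR of 0.0213 and an exact permutation p of 0.175. The call was lost without any one of Chow 1, Chow 2, Powder 1, Powder 2 or Powder 5. The probe sets of Tmem212 therefore shared the direction and the rats at both ends, and differed in the order of the rats between. Over the 10 rats their r was 0.77 (permutation p = 0.0121) and their Spearman's rho 0.45 (permutation p = 0.19). Without Chow 1 and Powder 1 the r was 0.04, so the relation rests on those rats.

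Foxj1 (1387386_at) gave no usable variation between rats. Its signal lay between 7.7326 in Chow 1 and 7.7332 in Powder 1, and the group means were 7.7328 and 7.7330. The SD over the 10 rats was 0.000171, and 44.1% of all probe sets had a larger one. The difference of -0.000165 (SE 9.6e-05) was not called in either direction. A flat probe set after this summarization does not show that the level of Foxj1 was constant.

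Rarres2 (1371691_at) went the other way. It read 9.13 in Chow 1, 8.48 in Chow 2, 8.26 in Chow 3, 9.04 in Chow 4 and 8.38 in Chow 5, against 8.23, 8.65, 8.87, 8.32 and 8.38 in Powder 1 to Powder 5. Chow 1 and Chow 4 were above every P rat, whereas the other 3 C rats lay below the mean of the P group. The means were 8.66 ± 0.40 (SD, n = 5) for C and 8.49 ± 0.27 (SD, n = 5) for P, a difference of 0.17 (SE 0.21), or 1.12 times the P level. The FDR of a higher level was 0.0383 and the exact permutation p was 0.444. Without Chow 1 the difference was 0.05 (FDR 0.28), and without both Chow 1 and Chow 4 it turned to -0.12 (not called). The call was also lost without Chow 2, Chow 4, Powder 1 or Powder 4. The genes of the known chemerin receptors were flat: Cmklr1, the signaling receptor, Cmklr2 (older symbol Gpr1) and Ccrl2, which binds chemerin without signaling, each had an SD below 0.001 and were not called.

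**Figure D2:**
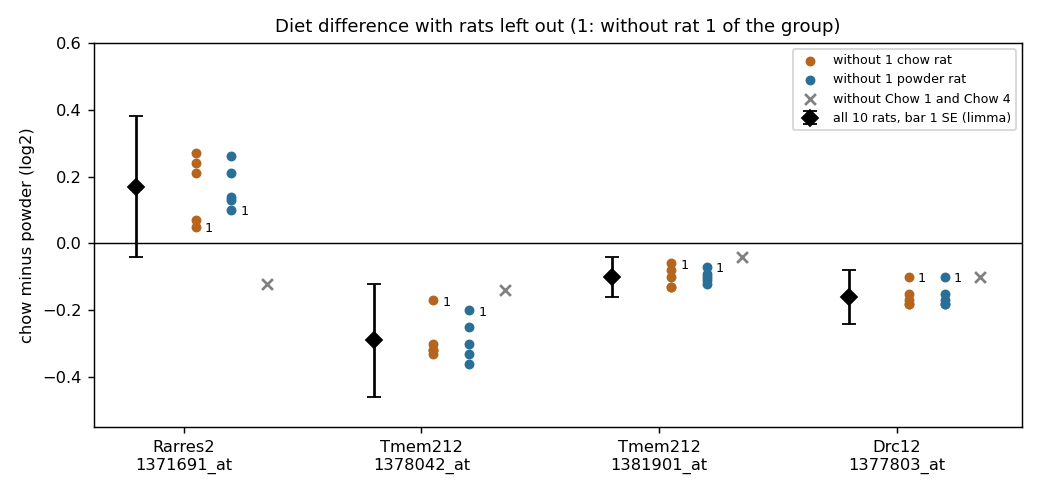
Difference of the C group minus the P group (log2) for the 4 probe sets that varied, with all 10 rats and with each rat left out in turn, and without both Chow 1 and Chow 4. The bar is 1 SE. The Rarres2 difference is 0.17 with all rats and 0.05 without Chow 1, and the first Tmem212 probe set goes from -0.29 to -0.17 without Chow 1.

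The covariation of the genes between rats was examined over the 6 pairs of varying probe sets, with permutation p-values adjusted over all 1390 other probe sets with an SD above 0.1. Drc12 and the second Tmem212 probe set moved most closely together, with an r of 0.94 (permutation p = 7e-05, adjusted p = 0.0195 among the partners of that Tmem212 probe set and 0.0903 among those of Drc12) and a rho of 0.95 (permutation p = 7e-05). Without Chow 1 and Powder 1, the rats at the ends, the r was 0.83, and with the diet means taken out it was 0.92. These 2 genes thus kept nearly the same order of rats within the diets as well. The adjusted p was 0.0751 with the diet means taken out and 0.0956 without those rats. It also missed 0.05 without any one of Chow 4 (0.0528), Chow 5 (0.0695), Powder 1 (0.134), Powder 2 (0.0565) and Powder 3 (0.0625), where r stayed at 0.93 to 0.94.

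Drc12 and the first Tmem212 probe set had an r of 0.78 (permutation p = 0.0212, adjusted p = 0.138 among the partners of that Tmem212 probe set) and a rho of 0.36 (permutation p = 0.311). Without Chow 1 and Powder 1 the r was -0.39, so this relation rests on those rats. Rarres2 ran opposite to the first Tmem212 probe set, with an r of -0.76 (permutation p = 0.00285, adjusted p = 0.0188) and a rho of -0.81 (permutation p = 0.007). That r was -0.58 without Chow 1 and Chow 4, the rats farthest from the median of Rarres2, with an adjusted p of 0.639. Without Chow 1 alone it was -0.60 (adjusted p = 0.275), and without Powder 1 alone -0.73 (adjusted p = 0.0566). Against the second Tmem212 probe set the r was -0.76 (permutation p = 0.00925, adjusted p = 0.0545) and the rho -0.72 (permutation p = 0.0234), and r was -0.50 without Chow 1 and Chow 4. Against Drc12 the r was -0.61 (permutation p = 0.0575, adjusted p = 0.243) and the rho -0.62 (permutation p = 0.0596), and r was -0.28 without those rats. Rarres2 therefore did not vary with Drc12 and Tmem212 as one group of genes over these rats.

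The other genes of motile cilia were taken from 5 lists (ciliogenesis transcription factors, dynein arms, radial spokes and nexin links, the central pair, and other genes of the axoneme or of multiciliated cells), with 98 entries, of which 53 were on the array. Of these 53, 41 were flat and 9 varied with an SD above 0.1. By rank products 6 were called lower in the C group and 1 higher, Tmem212 and Drc12 included, against 0.805% and 0.921% of all probe sets and 14.6% and 20.1% of the varying ones. The median difference of the 9 was -0.10, beside 0.0311 over all varying probe sets. The 7 calls became 2 without Powder 1, 3 without Chow 1, 3 without Powder 5, 4 without Powder 2 and 2 without both Chow 1 and Chow 4. Limma called none of the 53. No gene of the lists of transcription factors (6 on the array) or of the central pair (4 on the array) varied.

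Besides Tmem212 and Drc12, 4 genes were called lower. Ak7, an adenylate kinase of the axoneme, had a difference of -0.21 (SE 0.09, FDR 0.0013). Its values were 7.11, 7.34, 7.54, 7.42 and 7.36 in Chow 1 to Chow 5 and 7.76, 7.55, 7.35, 7.58 and 7.57 in Powder 1 to Powder 5, so that the groups overlapped with Chow 1 again lowest and Powder 1 highest. Cdhr4, a cadherin-related protein of multiciliated cells, differed by -0.16 (SE 0.10, FDR 0.00639). Mlf1, a protein found in ciliated cells, differed by -0.15 (SE 0.08, FDR 0.00293). Dynlrb2, a dynein light chain, differed by -0.10 (SE 0.09, FDR 0.043) and read 8.97 in Chow 1 and 9.51 in Powder 1, its lowest and highest values. These 4 genes had an r of 0.84 to 0.91 with Drc12 and -0.84 to -0.72 with Rarres2 over the 10 rats. All 4 read lowest in Chow 1 and highest in Powder 1, the rats at the ends of Drc12. For Dynlrb2 the r with Drc12 was 0.54 without those rats, and for the other genes it is not given here. The r over the 10 rats therefore cannot be read apart from those rats. The r of Dynlrb2 with Rarres2 was -0.61 without Chow 1 and Chow 4. Lrrc23, a radial spoke protein, was not called (difference -0.04, SE 0.09), had an r of 0.36 with Drc12 and has a further probe set that was flat.

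The remaining genes that varied in these lists are also made by other cells. Hdc, the histidine decarboxylase of histamine neurons, was the single gene called higher (0.08, SE 0.08, FDR 0.0452), with an r of -0.05 with Drc12. Vim, the intermediate filament vimentin of glia, ependyma and fibroblasts, was not called (0.12, SE 0.14) and had an r of 0.93 with Rarres2 and -0.55 with Drc12. Averaged over the 7 varying genes other than Tmem212 and Drc12, the deviation of each rat from its mean had an r of 0.88 with Drc12, 0.91 with the second Tmem212 probe set, 0.60 with the first and -0.59 with Rarres2 (n = 10 rats, no test). Without Chow 1 and Powder 1 the same values were 0.86, 0.93, -0.07 and -0.31. The 7 genes include Lrrc23, Hdc and Vim. This mean therefore does not show how Ak7, Cdhr4, Mlf1 and Dynlrb2 alone follow Drc12 without those rats.

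**Figure D3:**
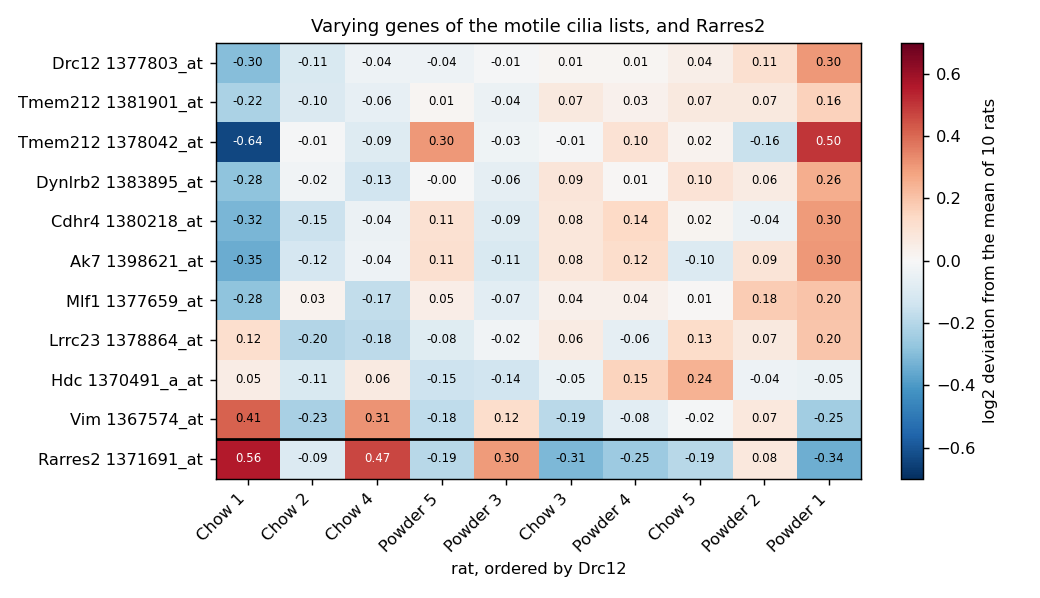
Deviation of each rat's log2 signal from the mean of the 10 rats, for the member probe sets and the other genes of motile cilia that varied. Tmem212, Drc12, Dynlrb2, Ak7, Mlf1 and Cdhr4 are low in Chow 1 and high in Powder 1, and Rarres2 and Vim are high in Chow 1.

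Markers of neighboring cell types were read in the same rats. Of 20 leptomeningeal genes on the array, 18 varied, 17 were called higher in the C group and 0 lower, against 0.921% called higher of all probe sets and 20.1% of the varying ones. The 17 were Col1a1, Col1a2, Col3a1, Dcn, Lum, Ogn, Fmod, Bgn, Islr, Mgp, Igf2, Igfbp2, Slc6a13, Slc22a6, Aldh1a2, Crabp2 and Ptgds, with differences of 0.16 (Crabp2) to 0.36 (Col3a1), and the median difference of the varying ones was 0.24. The defining factors Foxc1 and Foxc2 were flat. The mean deviation of the varying genes of this list was highest in Chow 1 (0.80) and Chow 4 (0.63). Chow 2, Chow 3 and Chow 5 lay between -0.41 and -0.19, and the P rats between -0.67 and 0.41. It had an r of 0.99 with Rarres2 over the 10 rats and 0.97 without Chow 1 and Chow 4. With Tmem212 it had an r of -0.80 and -0.75, and with Drc12 -0.64. Without Chow 1 and Powder 1 these values were -0.54, -0.39 and 0.07, so the relation with Drc12 rests on those rats. The r with Rarres2 was then 0.99. The part of leptomeningeal tissue in the Rarres2 difference was not tested.

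**Figure D4:**
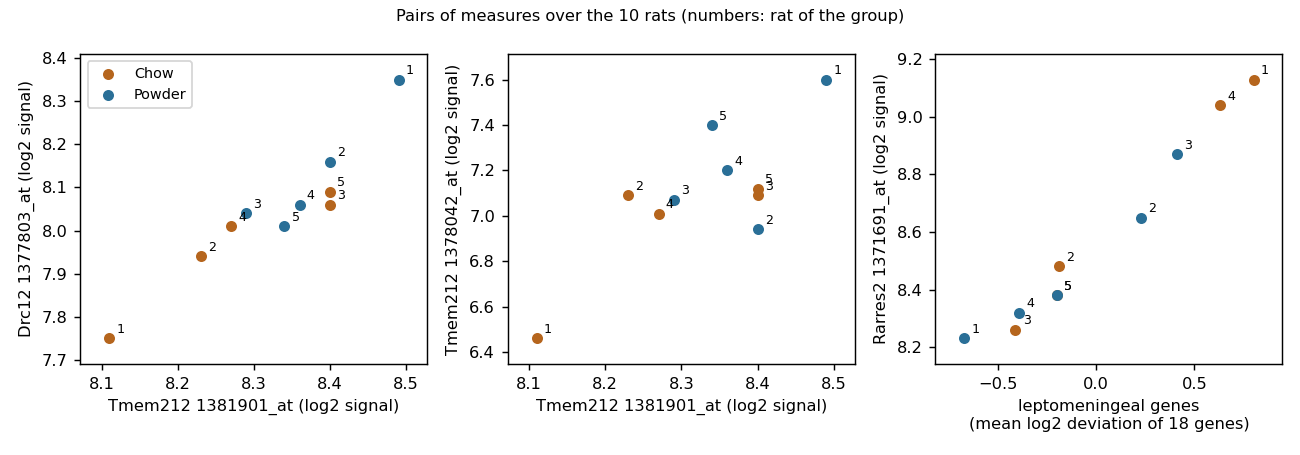
Drc12 against the second Tmem212 probe set, the first against the second Tmem212 probe set, and Rarres2 against the mean log2 deviation of the 18 varying leptomeningeal genes, 1 point per rat in log2 units, with C and P rats in different colors. Drc12 and the second Tmem212 probe set increase together (r 0.94), the Tmem212 probe sets share only their end rats Chow 1 and Powder 1 (r 0.77, and 0.04 without them), and Rarres2 lies along a line with the leptomeningeal genes (r 0.99).

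Of 17 choroid plexus genes on the array 3 varied and 2 were called higher, against 0.921% of all probe sets and 20.1% of the varying ones. The 2 were the thyroxine carrier Ttr (0.43, SE 0.56) and the sulfate transporter Slc13a4 (0.31, SE 0.62). Over the 3 varying genes, the mean deviation ranged from -0.38 to 0.88 in C rats and from -0.66 to 0.43 in P rats. Ttr, the defining marker, had an r of 0.10 with Rarres2, and Slc13a4 had 0.98. Of 21 tanycyte genes, which mark the non-ciliated cells of the ventricle floor, 6 varied. Fndc3c1 was called higher (0.29, SE 0.17, FDR 0.00636) and Crabp1 lower (-0.12, SE 0.10, FDR 0.0182). Of all probe sets 0.921% were called higher and 0.805% lower, and of the varying ones 20.1% and 14.6%. Fndc3c1 read 7.38 in Chow 4 and 6.96 in Chow 5, and all other rats lay between 6.39 and 6.54. Over the 6 varying genes, the mean deviation ranged from -0.11 to 0.18 in C rats and from -0.08 to -0.00 in P rats. It had an r of 0.43 with Rarres2 and -0.24 with Drc12.

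Of 13 astrocyte genes 5 varied and 2 were called higher, against 0.921% of all probe sets and 20.1% of the varying ones. The 2 were the filament protein Gfap (0.16, SE 0.11) and the water channel Aqp4 (0.09, SE 0.07). Of Aqp4, 2 further probe sets were not called. Over the 5 varying astrocyte genes, the mean deviation ranged from -0.07 to 0.23 in C rats, highest in Chow 1. In P rats it ranged from -0.12 in Powder 1 to 0.01. It had an r of -0.83 with Drc12, -0.83 and -0.82 with the Tmem212 probe sets and 0.74 with Rarres2, and of -0.18, -0.08, -0.30 and 0.45 without Chow 1 and Powder 1. Of 6 genes of the pars tuberalis, which lies below the hypothalamus, 4 were called higher, beside the same shares of 0.921% and 20.1%. These were the hormone subunits Cga (1.04, SE 0.69) and Tshb (0.54, SE 0.28) and the peptides Cck (0.20, SE 0.14) and Nmu (0.20, SE 0.20). Their mean deviation stood apart in Chow 4 (1.26) and Chow 5 (0.51), while the other 3 C rats lay between -0.33 and -0.03 and the P rats between -0.30 and -0.18. For Cga, Chow 4 read 9.85 and Chow 5 read 8.48, and all other rats lay between 6.36 and 6.64. Cck did not follow this pattern. It was highest in Chow 1 (9.45), read 8.87 in Chow 4 and 8.81 in Chow 5, and had an r of -0.69 with Drc12. The mean deviation of the 4 genes had an r of 0.47 with Rarres2 and -0.13 with Drc12.

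Of 15 genes of hypothalamic neurons, 10 varied with an SD above 0.1, and 9 of the 15 were called lower in the C group, against 0.805% of all probe sets and 14.6% of the varying ones. The 9 were Hcrt, Pmch, Oxt, Avp, Trh, Crh, Cartpt, Nts and Tac1, with differences of -0.25 (Oxt) to -0.0628 (Tac1), and the study itself picked several of them from these arrays. The mean deviation of the varying genes was -0.22 in Chow 1 and at most 0.01 in the other C rats, and it was 0.18 in Powder 1 and at least -0.01 in the other P rats. It had an r of 0.86 with Drc12 and of 0.92 and 0.83 with the Tmem212 probe sets over the 10 rats, and of 0.16, 0.55 and 0.31 without Chow 1 and Powder 1. The genes of the list did not all follow this mean. Npy was highest of all rats in Chow 1 (9.98) and Avp second highest there (12.33), with an r of -0.38 and -0.18 with Drc12. Hcrt was lowest in Chow 1 (9.94), but with 10.89 in Powder 1 it was not highest there. The part of the share of each tissue in a dissected sample was not tested.

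The probe sets most like each varying member over the 10 rats were taken among those with an SD above 0.1 that name a single gene. Those most like Rarres2 were Aldh1a2, the enzyme that makes retinoic acid in the meninges, the GABA transporter Slc6a13, both probe sets of the proline transporter Slc6a20a, and Fn1, fibronectin, each with an r of 0.99 (adjusted permutation p = 0.000253, limited by the resamples) and 0.97 to 0.99 without Chow 1 and Chow 4. The probe set most opposite to it was that of Dynlrb2 (r -0.84), followed by Pip5kl1 (r -0.81). Of the 1390 other varying probe sets 160 had an r above 0.9 with Rarres2 and 233 had an adjusted p below 0.05. The label of an ependymal gene is therefore not borne out for Rarres2 by its pattern over these rats, which followed leptomeningeal genes.

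Those most like the second Tmem212 probe set were Dynlrb2 (r 0.94), Drc12 (0.94), the homeobox gene Dlx1 of GABA neurons (0.93), Qpct, which forms the pyroglutamate end of neuropeptides (0.91), and Trh, thyrotropin releasing hormone (0.90). Without Chow 1 and Powder 1 the r with that probe set was 0.80 for Dynlrb2, 0.83 for Drc12, 0.88 for Dlx1, 0.75 for Qpct and 0.73 for Trh. Those most like Drc12 were that Tmem212 probe set, Gnas and Trh (0.92 each), Dynlrb2 (0.91) and Qpct (0.89). For Drc12, 0 had an adjusted p below 0.05, with 150 (10.8%) below 0.05 before adjustment. Without Chow 1 and Powder 1 the r with Drc12 was 0.56 for Gnas, 0.68 for Trh, 0.54 for Dynlrb2 and 0.65 for Qpct. The first Tmem212 probe set was most like Mrpl50 (0.97), a protein of mitochondrial ribosomes, then Cdhr4 (0.90), Gnas (0.89), Ak7 (0.85) and Dynlrb2 (0.81). Without Chow 1 and Powder 1 its r with Mrpl50 was 0.92, with Cdhr4 0.60, with Gnas 0.29, with Ak7 0.35 and with Dynlrb2 0.06. Most opposite to the first Tmem212 probe set were Serpinh1 (-0.93), a chaperone of collagen, and Eya2 (-0.91). For the second they were Cpxm1 (-0.93) and Ndnf (-0.91), and for Drc12 Neurod6 (-0.93) and Cpxm1 (-0.92). Without Chow 1 and Powder 1 the r with Drc12 was -0.40 for Neurod6 and -0.49 for Cpxm1. The opposites of the Tmem212 probe sets then had an r of -0.93 to -0.72. Dynlrb2 stood among the 5 most alike of Drc12 and of both Tmem212 probe sets and was the most opposite of Rarres2.

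The flat probe sets of the same lists were compared with Drc12 as a description chosen after the data were seen, since their differences between rats are very small. Of the 41 flat probe sets, 33 (80.5%) had a positive r with Drc12, with a median of 0.41, against 55.2% and a median of 0.04 among all 28736 flat probe sets. Without Chow 1 and Powder 1 the values were 34 (82.9%) and a median of 0.42, against 53.7% and 0.04. With the first Tmem212 probe set the number went from 34 (82.9%) to 23 (56.1%) without those rats, against 53.9% and 53.5% of all flat probe sets. The median r went from 0.36 to 0.11. With the second it was 35 (85.4%) and 37 (90.2%), against 55.3% and 53.5%. With Rarres2, 9 of the 41 (22%) had a positive r, with a median of -0.44, against 44.8% and a median of -0.05 among all flat probe sets. Of 12 flat tanycyte genes 5 (41.7%) and of 13 flat choroid plexus genes 6 (46.2%) had a positive r with Drc12. Without Chow 1 and Powder 1 these were 6 (50%) and 9 (69.2%), with medians of -0.01 and 0.17. The other lists had few flat genes. Without those rats 3 of 5 for astrocytes, 3 of 3 for neurons and 0 of 2 for leptomeninges had a positive r. Since single flat probe sets carry no usable variation, none of them is read on its own. All these probe sets share the arrays and their normalization.

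**Figure D5:**
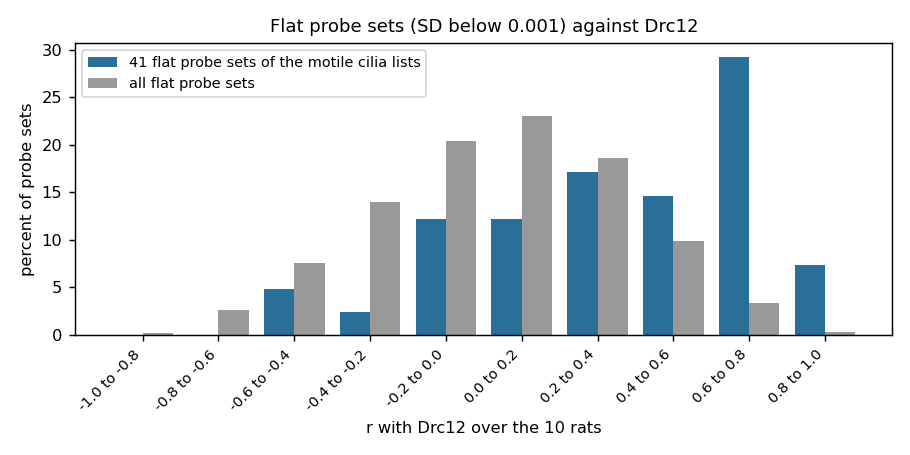
Share of flat probe sets (SD below 0.001) by their correlation with Drc12 over the 10 rats, for the 41 of the motile cilia lists and for all 28736. The motile cilia probe sets lie further to the right, with a median r of 0.41 against 0.04.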

How the data were processed

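Total RNA of the hypothalamus of 10 rats was hybridized to 1 array each. Scan data were summarized and normalized by the authors with FARMS, a method that fits a factor model to the probes of each set, and the deposited values are log2 signals. This method leaves probe sets without shared probe signal almost flat. An array has no read depth, so the number of rats limits the precision. The table lists 31099 probe sets, and 57 of them, hybridization controls, were not analyzed. Genes were named from the platform annotation, which can be old, and 0 symbols changed through the gene identifiers.

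Differences were tested on all 31042 probe sets with rank products (25 pairings of C with P rats, 100 permutations), limma 3.58.1 in R 4.3.3 (moderated test, Benjamini-Hochberg adjusted) and exact permutation of the rats' diets. Correlations used 100000 resamples (seed 20). Python 3.11.15, numpy 2.4.6, pandas 2.3.3, scipy 1.17.1 and matplotlib 3.10.9 were used, and the tests were checked on simulated data.

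The members and gene lists were chosen with earlier results of these data known. Named were all probe sets of the 4 genes, genes called in each list (otherwise the 3 largest differences of varying genes), and the 5 most and 2 least alike probe sets. The probe set of highest mean stood for a gene. Alternatives were other statistics, filters, normalizations, thresholds and left-out rats. The correlations of flat probe sets were added after seeing the data.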

Additional observations from a re-analysis of the deposited data

Results flagged for a closer look

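For the first Tmem212 probe set (1378042_at), Chow 1 read 6.46 while the other 4 C rats read 7.01 to 7.12. The gap to the nearest rat was 0.83 of the range of the group, above the critical value of 0.71 for 5 rats. In all, 24 groups of 5 rats were examined in this way, over the varying probe sets of the members and of the other motile cilia genes and the mean of the latter, and this 1 passed, where chance alone would pass about 1.2. The difference between the diets for this probe set was -0.17 without Chow 1.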

How the results depend on the processing

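Quantile normalization and centring of the arrays kept the rank product calls of all 4 varying probe sets. Rank sums, fold changes divided by the within-group SD, restriction to SD above 0.1, limma and limma with the replicate block left the differences of 0.17, -0.29, -0.10 and -0.16 (Rarres2, both Tmem212 probe sets, Drc12) uncalled, so that the number of members called was 0. With the block the adjusted p was 0.995. Same-numbered rats had deviations with an r of -0.33 to 0.28 and only 1 rat was most like its own number. No likeness by number was seen, but this cannot show that the numbers carry no pairing. With 1 probe set per gene the Rarres2 call was lost (FDR 0.0575) and 2 members were called, with a mean level above the median the calls of Rarres2 (FDR 0.0681) and of the second Tmem212 probe set (FDR 0.0621) were lost and 1 was called, and at an FDR below 0.01 only the first Tmem212 probe set was called. Without both Chow 1 and Chow 4, Rarres2 reversed to -0.12, the Tmem212 probe sets read -0.14 and -0.04, Drc12 read -0.10, 0 members were called and 2 genes of the motile cilia lists were called. Of those lists 7 genes were called in all, 0 with SD above 0.1 or limma and 3 at an FDR below 0.01.

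Leaving out each rat, differences ranged from 0.05 to 0.27 (Rarres2), -0.36 to -0.17 and -0.13 to -0.06 (Tmem212), -0.18 to -0.10 (Drc12) and -0.000223 to -0.000102 (Foxj1), members called from 1 to 4, and genes of the lists called from 2 to 7. The r of Rarres2 ranged from -0.82 to -0.60 and from -0.85 to -0.60 with the Tmem212 probe sets and from -0.66 to -0.34 with Drc12. It ranged from 0.52 to 0.86 between the Tmem212 probe sets and, with Drc12, from 0.55 to 0.88 and from 0.87 to 0.95. For Rarres2 and the first Tmem212 probe set the adjusted p missed 0.05 with the diet means out (-0.76), as rho (-0.81), without Chow 1 and Chow 4 (-0.58), and without Chow 1 (-0.60) or Powder 1 (-0.73) alone. For the second Tmem212 probe set and Drc12 it missed it with the diet means out (0.92), without Chow 1 and Chow 4 (0.88), without Chow 1 and Powder 1 (0.83), and without any one of Chow 4, Chow 5, Powder 1, Powder 2 or Powder 3 (0.93 to 0.94). For Rarres2 and the second Tmem212 probe set it passed with quantile normalization or centring (-0.77), without Chow 2 (-0.85) and without Powder 2 (-0.80).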
